A study of Mus musculus with 12 samples.

Results

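The β-adrenergic and cAMP signaling genes are 9 genes of the route from the noradrenaline receptor to protein kinase A in adipocytes, namely *Adrb3*, *Adrb1*, *Gnas*, *Adcy3*, *Prkaca*, *Prkar2b*, *Pde3b*, *Pde4d* and *Rgs2*. They were chosen by name for their known roles, and all 9 were found among the 14159 listed genes. RNA-seq of polyadenylated RNA from whole mouse iWAT gave 12 libraries, with 3 biological replicates, numbered 0 to 2, in each of 4 groups. The groups were Atf4WT and Atf4AKO mice kept at RT, and Atf4WT and Atf4AKO mice after 24 h of cold exposure. Atf4AKO mice carried floxed *Atf4* alleles and the *Adipoq*-Cre transgene, Atf4WT mice were floxed littermates, and both were on a C57BL/6 background. *Adipoq*-Cre acts in adipocytes of all fat depots, so the other cells of the tissue kept *Atf4*. The age of the mice is not given for these libraries in the sources used here. The listed genes took up 25719476 to 29105147 reads of a library. Values are normalized counts, which are the reads of a gene divided by a size factor of the library.

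Noradrenaline from sympathetic nerves binds β-adrenergic receptors on adipocytes, and the stimulatory G protein then activates adenylyl cyclase, which makes cAMP. Protein kinase A, opened by cAMP, phosphorylates lipases, lipid droplet proteins and transcription factors, and so starts lipolysis and the thermogenic program of beige adipocytes. Phosphodiesterases break cAMP down, receptors are desensitized under lasting stimulation, and RGS proteins shorten the active state of G proteins.

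The deleted gene served to check the genotype labels. *Atf4* had 5669, 4670.3 and 4107 normalized counts in Atf4WT at RT and 7644, 7511 and 5756 in Atf4WT after cold. In Atf4AKO iWAT it had 1594, 1469.7 and 1639 at RT and 1578, 788 and 1179.8 after cold. Every Atf4AKO library lay below every Atf4WT library. The adipocyte gene *Adipoq* had between 55500 and 108458 counts in the 12 libraries. It marks fat tissue, and cannot tell iWAT apart from other fat depots.

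**Figure D1:**
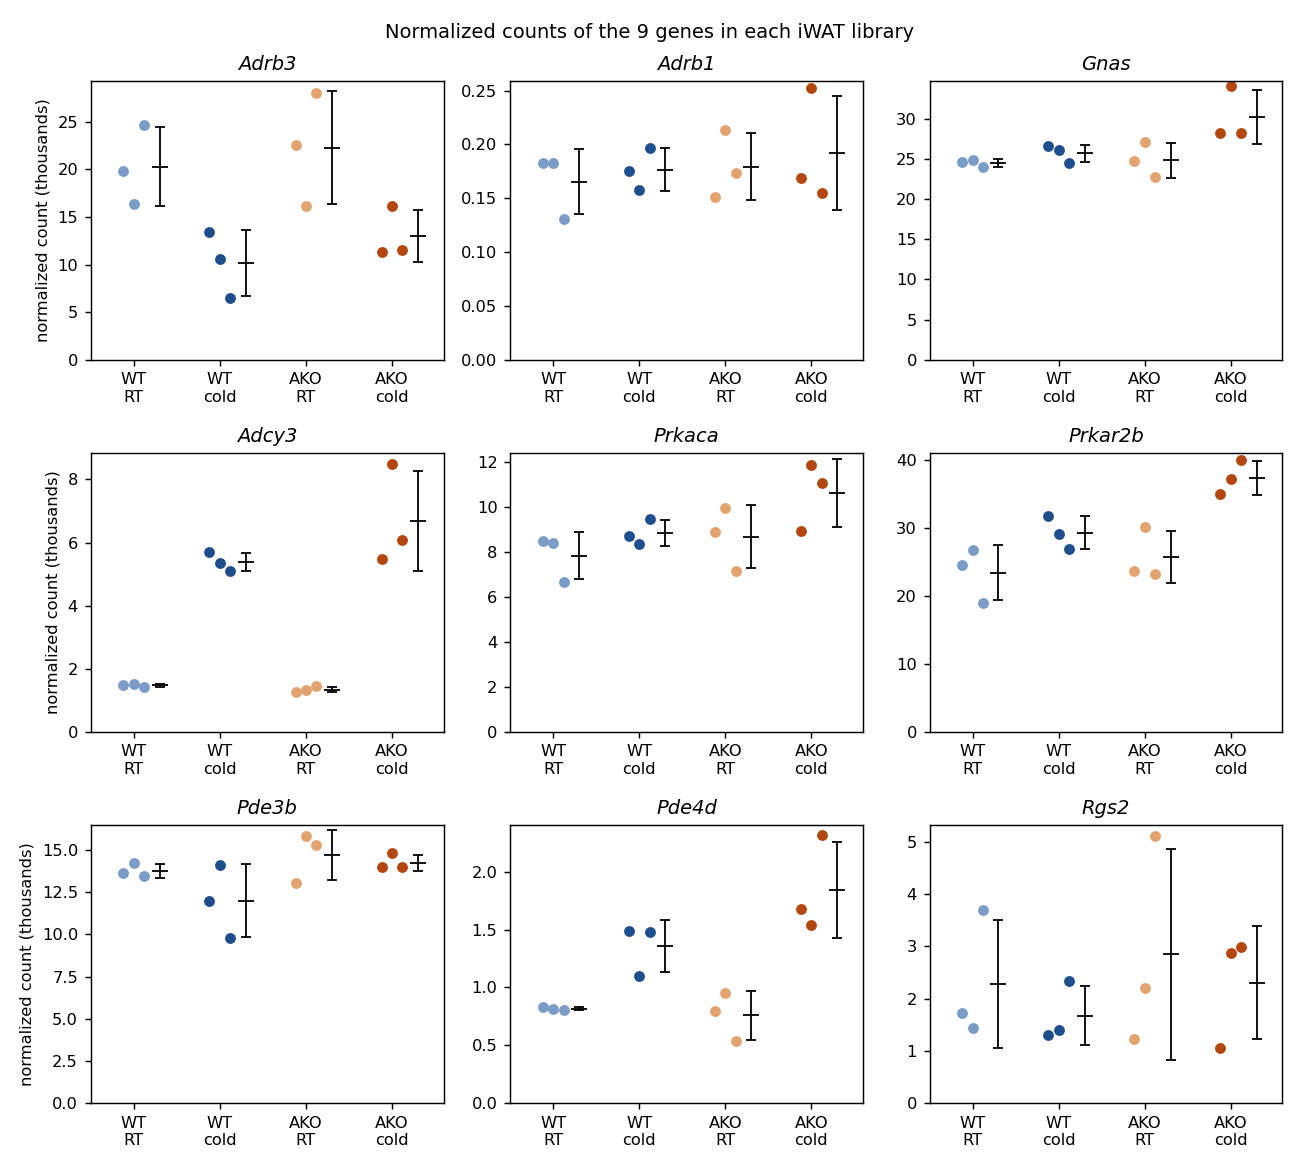
Normalized counts (vertical axes, which start at 0) of the 9 genes in the 12 iWAT libraries, with 1 point per library and the mean with SD bars beside each group. *Adcy3*, *Pde4d* and *Prkar2b* sit higher in every cold library than in any RT library of their genotype, and *Adrb3* sits lower. *Gnas* sits higher in this way in Atf4AKO. How many of all genes separate so was not counted. For cold against RT, 31.9% of all tested genes in Atf4WT and 25.9% in Atf4AKO had an adjusted p under 0.05.

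Levels of different genes were compared per length, as normalized counts per kb of exon in the GENCODE annotation. In Atf4WT iWAT at RT the highest was *Prkar2b*, with 6393 ± 1104 counts per kb (SD, n = 3), and *Adrb3* followed with 6009 ± 1229, so these neighbors overlapped. *Prkaca* had 3155 ± 417, *Gnas* 2191 ± 40.6, *Pde3b* 1510 ± 43.4 and *Rgs2* 631 ± 337 counts per kb. *Adcy3*, *Pde4d* and *Adrb1* came last, with 235 ± 7.12, 68.1 and 48.9 counts per kb. The order of means was the same in Atf4AKO iWAT at RT, where *Pde4d* and *Adrb1* overlapped at 63.3 and 53.0 counts per kb. After cold exposure the order of means was *Prkar2b*, *Prkaca*, *Adrb3*, *Gnas*, *Pde3b*, *Adcy3*, *Rgs2*, *Pde4d* and *Adrb1* in both genotypes. *Adrb3* then stood at 3005 ± 1036 counts per kb in Atf4WT and 3846 ± 816 in Atf4AKO iWAT. It overlapped with *Prkaca* in both, and with *Gnas* in Atf4WT. *Adcy3* stood at 862 ± 47.8 and 1069 ± 255 counts per kb, above the mean of *Rgs2*.

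**Figure D2:**
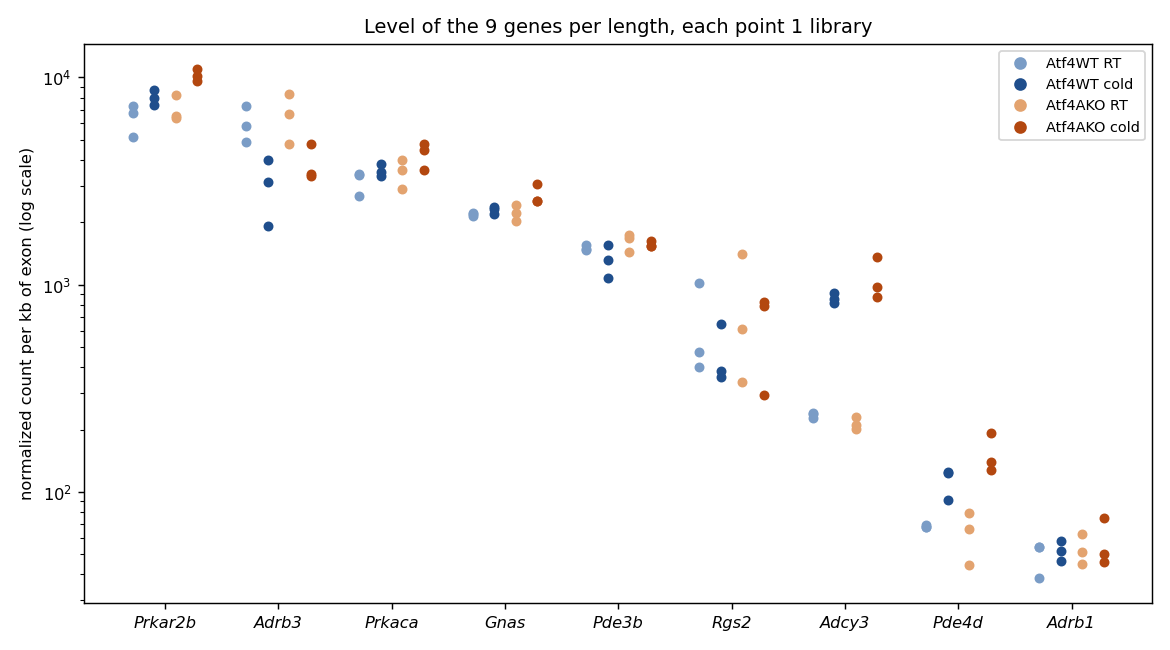
Normalized counts per kb of exon (log axis) of the 9 genes, ordered by their mean, with 1 point per library. The length is that of the exons joined over all annotated transcripts of a gene. *Prkar2b* lies near the top in every group, and *Adrb1* and *Pde4d* lie at the bottom.

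The promoters are shown because *Adcy3* and *Pde4d* were called higher after cold in both genotypes and *Prkar2b* in Atf4AKO alone, while *Prkaca* and *Rgs2* passed in neither. Of the 9 genes, 7 matched an entry among the RefSeq promoters (GRCm38.p6), which run from 250 bases before to 50 after a start, and *Adrb3* and *Pde3b* did not. The 7 genes have 13 such windows. The windows were searched on both strands for the cAMP response element TGACGTCA, for its shorter form TGACG, which the full element contains, and for the ATF4-type elements TGATGCAA and TGATGAAA. TGACG, read as CGTCA on the other strand, is in capitals. RNA-seq counts per gene do not say which start was used.
Adcy3 1: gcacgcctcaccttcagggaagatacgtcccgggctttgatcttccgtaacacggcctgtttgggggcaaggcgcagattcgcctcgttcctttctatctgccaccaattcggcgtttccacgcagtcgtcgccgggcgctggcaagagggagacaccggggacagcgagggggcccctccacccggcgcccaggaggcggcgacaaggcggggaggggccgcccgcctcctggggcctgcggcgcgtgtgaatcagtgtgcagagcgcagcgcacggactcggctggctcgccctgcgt
Adcy3 2: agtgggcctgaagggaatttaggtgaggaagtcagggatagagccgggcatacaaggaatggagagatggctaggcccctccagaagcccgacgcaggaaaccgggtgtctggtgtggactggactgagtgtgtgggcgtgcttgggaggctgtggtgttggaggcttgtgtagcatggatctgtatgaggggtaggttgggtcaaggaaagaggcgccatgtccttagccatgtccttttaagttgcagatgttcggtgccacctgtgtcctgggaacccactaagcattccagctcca
Pde4d: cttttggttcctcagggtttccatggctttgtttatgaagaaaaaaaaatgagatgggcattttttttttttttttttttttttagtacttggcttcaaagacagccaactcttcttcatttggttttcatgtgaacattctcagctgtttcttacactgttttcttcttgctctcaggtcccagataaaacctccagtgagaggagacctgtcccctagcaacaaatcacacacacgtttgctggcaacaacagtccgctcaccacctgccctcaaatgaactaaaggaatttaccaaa
Prkar2b 1: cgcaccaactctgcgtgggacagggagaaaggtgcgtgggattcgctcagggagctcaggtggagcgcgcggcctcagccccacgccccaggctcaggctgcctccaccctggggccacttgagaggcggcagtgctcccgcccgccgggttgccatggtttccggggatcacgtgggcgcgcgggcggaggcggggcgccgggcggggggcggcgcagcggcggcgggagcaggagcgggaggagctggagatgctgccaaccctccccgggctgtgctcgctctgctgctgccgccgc
Prkaca 1: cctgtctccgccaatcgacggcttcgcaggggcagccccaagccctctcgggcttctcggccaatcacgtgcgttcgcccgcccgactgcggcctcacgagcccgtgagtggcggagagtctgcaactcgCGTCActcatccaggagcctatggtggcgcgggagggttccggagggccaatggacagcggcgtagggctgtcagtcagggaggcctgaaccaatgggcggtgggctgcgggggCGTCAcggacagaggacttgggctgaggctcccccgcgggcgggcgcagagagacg
Rgs2: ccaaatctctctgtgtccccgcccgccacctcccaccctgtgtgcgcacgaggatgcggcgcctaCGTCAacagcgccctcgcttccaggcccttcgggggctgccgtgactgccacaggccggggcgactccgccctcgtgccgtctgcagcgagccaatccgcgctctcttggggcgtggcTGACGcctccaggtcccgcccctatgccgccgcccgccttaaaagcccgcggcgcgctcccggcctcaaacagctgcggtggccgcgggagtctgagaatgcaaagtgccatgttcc
The windows lie at chr12:4133147-4133446 and chr12:4133903-4134202 on the plus strand for *Adcy3*, and at chr13:108653927-108654226 on the plus strand for *Pde4d*. That of *Prkar2b* is chr12:32061228-32061527 on the minus strand, that of *Prkaca* chr8:83972728-83973027 on the plus strand, and that of *Rgs2* chr1:144004100-144004399 on the minus strand. TGACGTCA was in 0 of the 13 windows, and 1.79% of the 32817 promoters of the genome hold it. TGACG was in 6 of the 13 windows, of *Adrb1*, *Prkaca*, *Gnas* and *Rgs2*, against 20.8% of all promoters. Of the 3 *Gnas* windows that hold it, 2 overlap and share the same match, so counted by gene it was in 4 of 7, against 23.0% of all genes. TGACG contains CG, and 11 of the 13 windows had a GC content above the median of all promoters, 52.7%. In the *Prkaca* window shown it begins 120 and 6 bases before the start, and in the *Rgs2* window 185 and 67 bases before it. TGATGCAA and TGATGAAA were in 0 of the 13 windows and in 0.896% and 1.02% of all promoters. The windows of *Adcy3*, *Pde4d* and *Prkar2b* held none of these letters. They cover only part of the annotated transcript starts, which number 20 for *Pde4d* with 1 window and 8 for *Adcy3* with 2 windows. The *Pde4d* window begins at 108653927, inside a gene annotated from 108449948. Starts without a window were not searched, so nothing is said of them.

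Cold exposure was compared with RT in each genotype to ask how the route responds to cold and whether the response needs *Atf4* in adipocytes. The test was limma over the 13404 genes whose mean was 10 normalized counts or more, a filter that all 9 genes passed, and a gene was called at a Benjamini-Hochberg adjusted p under 0.05. In Atf4WT iWAT 2 of the 9 genes were called higher after cold, where 17% of all tested genes were, and 1 was called lower, where 14.9% of all were. In Atf4AKO iWAT 3 were called higher, against 14.8% of all tested genes, and 0 lower, against 11%. The median log2 fold change of the 9 genes was 0.10 in Atf4WT and 0.28 in Atf4AKO iWAT, against 0.00 and −0.03 over all tested genes. In each genotype, edgeR called 3 of the 9 genes, and DESeq2 called 3 in Atf4WT and 5 in Atf4AKO. As a reference, the thermogenic gene *Ucp1* had log2 fold changes of 7.67 and 7.51 in the same comparisons.

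**Figure D3:**
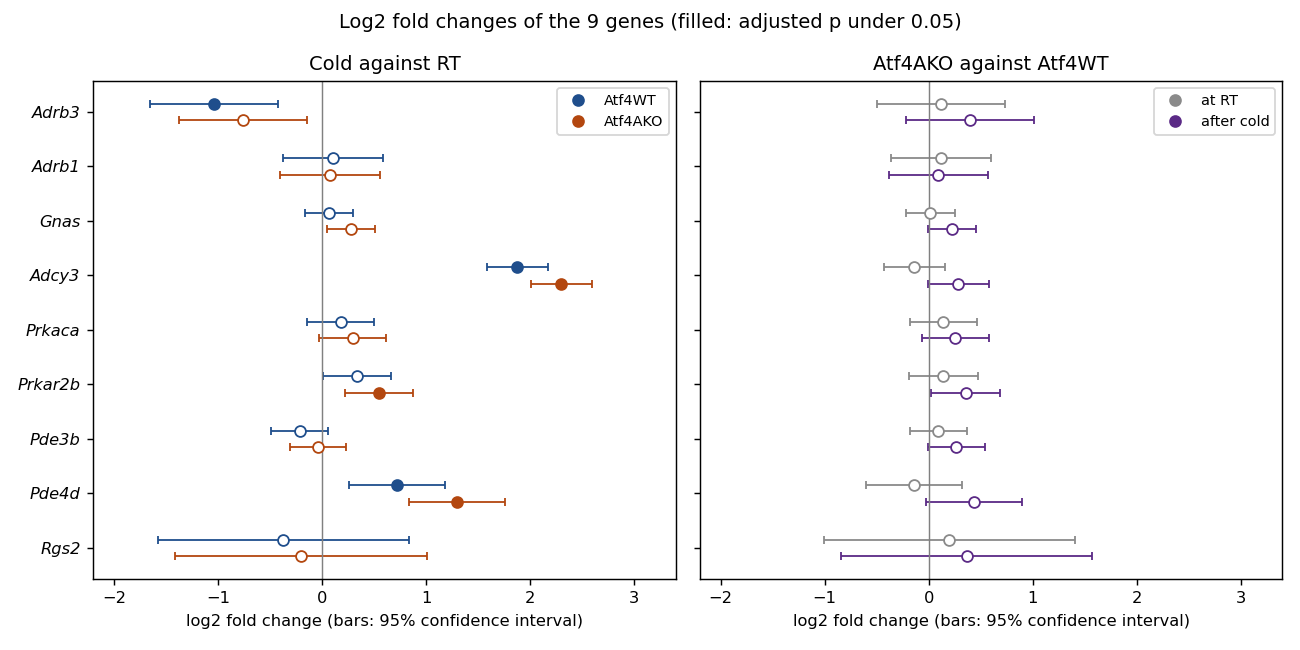
Log2 fold changes of the 9 genes for cold against RT in each genotype (left) and for Atf4AKO against Atf4WT at RT and after cold (right), with 95% confidence intervals. Filled points have an adjusted p under 0.05, and all points on the right are open.

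*Adrb3* (NM_013462, chromosome 8 from 27225776 to 27250616, minus strand) encodes the β3-adrenergic receptor, the main β-adrenergic receptor of mouse adipocytes. In Atf4WT iWAT it had 19789.0, 16404 and 24661 normalized counts at RT and 13430.1, 10537 and 6471 after cold. Atf4AKO iWAT had 22547, 16189 and 28025 at RT and 11279, 16164 and 11509.8 after cold. Every cold library lay below every RT library of its genotype, in Atf4AKO by a narrow margin between cold replicate 1 and RT replicate 1. In Atf4WT iWAT the receptor gene fell, with a log2 fold change of −1.04 (SE, the standard error, 0.28, adjusted p = 0.0163). Of all tested genes, 4.54% had a lower log2 fold change there. The call was lost without Atf4WT RT replicate 2 (−0.89, adjusted p = 0.0544) and without Atf4WT cold replicate 2 (−0.75, adjusted p = 0.0563). In Atf4AKO iWAT the log2 fold change was −0.76 (SE 0.28, adjusted p = 0.0665, unadjusted p = 0.0195), which did not pass. There DESeq2 called the gene (adjusted p = 0.0191), as did limma without Atf4AKO RT replicate 1 (adjusted p = 0.0416) or without Atf4WT cold replicate 2 (adjusted p = 0.0340), or with array weights (adjusted p = 0.0363). The difference between the responses of the genotypes was 0.28 (adjusted p = 0.996), with a 95% confidence interval from −0.59 to 1.15. The adipocyte gene *Adipoq*, named as a reference, had −0.60 (adjusted p = 0.0148) in Atf4WT and −0.36 (adjusted p = 0.119) in Atf4AKO iWAT, with a difference between these of 0.25 (adjusted p = 0.996). It was the 1 of 8 white adipocyte markers called in Atf4WT, and 4 of the 8 had positive and 4 negative log2 fold changes in each genotype. An antisense gene not listed in the counts, *Gm45470*, covers 24.9% of the exon bases of *Adrb3*, and the strand setting of the counting is not stated, so reads from it cannot be told apart. The libraries were strand-specific, and the counting parameters that the authors list for featureCounts include no strand option.

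*Adrb1* (NM_007419, chromosome 19 from 56722199 to 56733113, plus strand) encodes the β1-adrenergic receptor, which also couples to the stimulatory G protein. Its counts were 182.8, 182.8 and 130.7 in Atf4WT at RT, and 175.7, 157.3 and 196.8 in Atf4WT after cold. Atf4AKO iWAT had 151.5, 213.1 and 173.5 at RT and 169.0, 252.8 and 154.7 after cold. All 4 groups overlapped, with the highest value in Atf4AKO cold replicate 1 and the lowest in Atf4WT RT replicate 2. The log2 fold changes with cold were 0.10 (95% confidence interval −0.38 to 0.58, adjusted p = 0.744) and 0.08 (−0.40 to 0.56, adjusted p = 0.816). Ratios of levels per kb are given here and below as means of the ratios in single libraries. Per kb of exon, the level of *Adrb3* was 129 (SD 52.7) times that of *Adrb1* in Atf4WT iWAT at RT and 58.9 (SD 23.0) times after cold. In Atf4AKO iWAT these ratios of levels per kb were 129 and 68.5.

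*Gnas* (NM_022000, chromosome 2 from 174284320 to 174346744, plus strand) encodes the α subunit of the stimulatory G protein. In Atf4WT iWAT it had 24636, 24888.5 and 24007 normalized counts at RT and 26579.8, 26060.1 and 24522.5 after cold. The counts of Atf4AKO iWAT were 24719.6, 27101 and 22759.0 at RT and 28286, 34135 and 28215 after cold. The 3 cold libraries of Atf4AKO lay above all other libraries, with Atf4AKO cold replicate 1 the highest. The log2 fold change with cold was 0.07 (adjusted p = 0.646) in Atf4WT and 0.28 (SE 0.11, adjusted p = 0.0730) in Atf4AKO iWAT, so neither passed. DESeq2 called the gene in Atf4AKO iWAT (adjusted p = 0.0175), and so did limma with the replicate number as a block (adjusted p = 0.0395). The locus is imprinted and has 16 annotated transcript starts, which counts per gene add together, and *Nespas* and *Gm20721* run antisense over 8.83% and 13.1% of its exon bases.

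*Adcy3* (NM_001159536, chromosome 12 from 4133103 to 4213525, plus strand) encodes adenylyl cyclase 3, a membrane enzyme that makes cAMP. In Atf4WT iWAT it had 1483, 1501 and 1417 normalized counts at RT and 5698, 5352 and 5104 after cold. In Atf4AKO iWAT it had 1252, 1315 and 1431 at RT and 5468, 8484 and 6080.45 after cold. The cold libraries of each genotype lay far above the RT libraries, and Atf4AKO cold replicate 1 was the highest. *Adcy3* rose in Atf4WT iWAT by a log2 fold change of 1.87 (SE 0.13, 95% confidence interval 1.58 to 2.17, adjusted p = 2.07e-05), and the cold mean was 3.67 times the RT mean. In Atf4AKO iWAT it rose by 2.30 (SE 0.13, adjusted p = 7.53e-06), and the cold mean was 5.01 times the RT mean. Both calls held in all 23 alternatives tried. Among the 13404 tested genes, 273 had a higher log2 fold change than *Adcy3* in Atf4WT and 41 in Atf4AKO iWAT. The difference between the responses was 0.43 (unadjusted p = 0.0457, adjusted p = 0.702). *Adcy3* has 8 annotated transcript starts, and its counts do not tell full-length from shorter transcripts. *Cenpo* runs antisense over 22.1% of its exon bases and had a mean of 154 normalized counts over the 12 libraries.

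Profiles over the 12 libraries were compared by the root mean square difference of log2 values centred on their mean, among 11841 genes. The genes most like *Adcy3* were *Slc25a20*, *Ndufaf4* and *Cidea*, with differences of 0.166, 0.195 and 0.202. The genes most like *Adrb3* were *Chrd*, *Aplnr* and *Hcar1*, with differences of 0.207, 0.217 and 0.253.

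Protein kinase A joins catalytic subunits to regulatory subunits that hold them inactive until cAMP binds. *Prkaca* (NM_008854, chromosome 8 from 83972993 to 83996443, plus strand) encodes the catalytic subunit α. Its means were 7849 ± 1038 (SD, n = 3) normalized counts at RT and 8846 ± 582 after cold in Atf4WT, and 8686 ± 1411 and 10633 ± 1517 in Atf4AKO iWAT. Cold and RT libraries overlapped in both genotypes, and the log2 fold changes were 0.18 and 0.29, with adjusted p-values of 0.375 and 0.162. Leaving out 1 library gave 0.064 to 0.24 in Atf4WT and 0.16 to 0.41 in Atf4AKO iWAT.

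*Prkar2b* (NM_001364407, chromosome 12 from 31958476 to 32061296, minus strand) encodes the regulatory subunit RIIβ, the main regulatory subunit of adipose tissue. In Atf4WT iWAT it had 24527, 26659 and 18859.8 normalized counts at RT and 31708, 29079 and 26884 after cold. In Atf4AKO iWAT it had 23672, 30136 and 23234 at RT and 34930.1, 37102 and 39928.5 after cold. In each genotype every cold library lay above every RT library, in Atf4WT by a narrow margin, and the cold libraries of Atf4AKO lay above all others. *Prkar2b* rose in Atf4AKO iWAT, with a log2 fold change of 0.55 (SE 0.15, adjusted p = 0.0208). The call was lost without Atf4AKO RT replicate 0 (0.49, adjusted p = 0.0769), RT replicate 2 (0.48, adjusted p = 0.0650), cold replicate 1 (0.55, adjusted p = 0.0548) or cold replicate 2 (0.50, adjusted p = 0.0656). In Atf4WT iWAT the log2 fold change was 0.34 (SE 0.15, adjusted p = 0.107), which did not pass. The difference between the responses was 0.21 (adjusted p = 0.996, 95% confidence interval −0.25 to 0.67). The level of *Prkar2b* per kb was 2.02 and 2.03 times that of *Prkaca* at RT in Atf4WT and Atf4AKO iWAT, and 2.26 and 2.41 times after cold.

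Of the phosphodiesterase genes, *Pde3b* (NM_011055, chromosome 7 from 114415281 to 114539251, plus strand) encodes the enzyme through which insulin lowers cAMP in adipocytes. Its means were 13766 ± 396 (SD, n = 3) and 11984 ± 2163 normalized counts at RT and after cold in Atf4WT, and 14715 ± 1466 and 14252 ± 470 in Atf4AKO iWAT. Cold and RT libraries overlapped in both genotypes, and Atf4WT cold replicate 2 was the lowest of all with 9815 counts. The log2 fold changes were −0.22 and −0.04, with adjusted p-values of 0.206 and 0.830. The value in Atf4WT rested on single libraries, with −0.08 without Atf4WT cold replicate 2 and −0.34 (adjusted p = 0.0571) without cold replicate 1.

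*Pde4d* (NM_011056, chromosome 13 from 108449948 to 109953461, plus strand) encodes a phosphodiesterase specific for cAMP, whose long forms are activated by protein kinase A. In Atf4WT iWAT it had 832, 810.3 and 809 normalized counts at RT and 1491, 1097 and 1480.4 after cold. In Atf4AKO iWAT it had 794, 951 and 534 at RT and 1674, 1539.6 and 2315 after cold. Cold libraries lay above RT libraries in both genotypes, and the 3 cold libraries of Atf4AKO lay above those of Atf4WT. *Pde4d* rose in Atf4AKO iWAT by a log2 fold change of 1.29 (SE 0.21, adjusted p = 0.00160), a call that held in all 23 alternatives. In Atf4WT iWAT it rose by 0.72 (SE 0.21, adjusted p = 0.0241). That call was lost without Atf4WT RT replicate 0 (0.73, adjusted p = 0.0585), RT replicate 1 (0.71, adjusted p = 0.0644) or RT replicate 2 (0.71, adjusted p = 0.0547). It was also lost without Atf4WT cold replicate 0 (0.64, adjusted p = 0.0700) or cold replicate 2 (0.64, adjusted p = 0.0759). The difference between the responses was 0.58 (unadjusted p = 0.0770, adjusted p = 0.805). Per kb of exon, the level of *Pde3b* was 22.2 times that of *Pde4d* at RT and 12.1 times after cold in Atf4WT, and 27.1 and 10.5 times in Atf4AKO iWAT. These ratios depend on the length taken for *Pde4d*, which joins the exons of all its annotated transcripts. *Pde4d* has 20 annotated transcript starts, which its counts add together.

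*Rgs2* (NM_009061, chromosome 1 from 143999338 to 144004161, minus strand) encodes an RGS protein that speeds the return of G proteins to their inactive state. In Atf4WT iWAT it had 1724, 1448 and 3690.2 normalized counts at RT and 1304, 1395 and 2335 after cold. Atf4AKO iWAT had 1231, 2211 and 5112 at RT and 1063, 2867 and 2986 after cold. Replicate 2 was the highest of each group, and cold and RT libraries overlapped. The log2 fold changes were −0.37 (SE 0.55, adjusted p = 0.635) and −0.20 (adjusted p = 0.812), with 95% confidence intervals from −1.58 to 0.83 and from −1.41 to 1.01.

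Other genes of the route, and genes related to it, were taken from lists by function. The lists also hold the 9 genes, and the counts given by list include them. Beside the 9 genes, 115 genes of the lists were tested. Of these 115, 19 were called higher and 22 lower after cold in Atf4WT, and 14 higher and 13 lower in Atf4AKO iWAT, with median log2 fold changes of −0.12 and −0.11. Over all 13404 tested genes, 17% were called higher and 14.9% lower in Atf4WT, and 14.8% higher and 11% lower in Atf4AKO iWAT, and the counts from the lists stand against these shares. Of the 16 tested cAMP phosphodiesterase genes, *Pde3b* and *Pde4d* included, 4 were called higher in Atf4WT (17% of all genes were) and 5 in Atf4AKO iWAT (14.8% of all), and 0 were called lower in either (14.9% and 11% of all). Beside *Pde4d*, *Pde4a* rose by 0.78 (adjusted p = 0.00992) in Atf4WT and 1.01 (adjusted p = 0.00323) in Atf4AKO iWAT on the log2 scale, and *Pde1c* by 1.88 (adjusted p = 0.00251) and 2.05 (adjusted p = 0.00187). *Pde1c* had only 22.9 normalized counts in the mean of the 12 libraries. The others called higher, named after their values were seen, were *Pde7a* in Atf4WT (0.43, adjusted p = 0.0221), and *Pde7b* (0.55, adjusted p = 0.0454) and *Pde8a* (0.32, adjusted p = 0.0138) in Atf4AKO iWAT. Of the 9 tested adenylyl cyclase genes, 2 were called higher and 2 lower in Atf4WT, and 3 higher and 0 lower in Atf4AKO iWAT. The 2 lower ones were *Adcy2* (−1.99, adjusted p = 0.0272) and *Adcy1* (−0.99, adjusted p = 0.0223), with means of 57.7 and 48.3 counts in Atf4WT at RT against 1467 for *Adcy3*. The genes called higher beside *Adcy3*, named after their values were seen, were *Adcy4* in both genotypes (0.48, adjusted p = 0.0209, and 0.56, adjusted p = 0.0132) and *Adcy6* in Atf4AKO iWAT (0.31, adjusted p = 0.0212).

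Of the 8 tested adrenergic receptor genes, *Adrb3* and *Adrb1* included, 1 was called higher and 2 lower in Atf4WT, *Adrb3* among the 2. In Atf4AKO iWAT 1 was called higher and 1 lower. The α1 receptor gene *Adra1d* fell in Atf4WT (−0.99, adjusted p = 0.0295), and *Adra1b* fell in Atf4AKO iWAT (−2.45, adjusted p = 0.0242). The receptor gene called higher in both, named after its values were seen, was *Adra1a* (0.69, adjusted p = 0.00253, and 1.18, adjusted p = 0.000164). Of 14 other receptor genes whose products raise or lower cAMP, 0 were called higher in either genotype, while 3 were called lower in Atf4WT and 1 in Atf4AKO iWAT. *Hcar1*, which encodes the lactate receptor that lowers cAMP, fell in both (−0.86, adjusted p = 0.0118, and −0.93, adjusted p = 0.00928). *Adora1*, for an adenosine receptor that also lowers cAMP, fell in Atf4WT (−1.09, adjusted p = 0.00723), and its −0.59 in Atf4AKO iWAT did not pass (adjusted p = 0.103). *Tshr*, for the thyrotropin receptor, fell in Atf4WT by a log2 fold change of −0.30 (adjusted p = 0.0320). In Atf4AKO iWAT its value was positive and did not pass (0.17, adjusted p = 0.202).

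Of the 17 tested G protein subunit genes, 1 was called higher and 5 lower in each genotype. The γ subunit gene *Gng7* fell in both (−1.05, adjusted p = 0.000866, and −0.89, adjusted p = 0.00250). *Gnai1*, for an inhibitory α subunit, fell in Atf4WT (−0.53, adjusted p = 0.00919), and *Gnal*, for a stimulatory α subunit close to that of *Gnas*, fell in Atf4AKO iWAT (−1.74, adjusted p = 0.0114). The inhibitory subunit genes *Gnai2* (−0.42, adjusted p = 0.00661, and −0.66, adjusted p = 0.000747) and *Gnai3* (−0.34, adjusted p = 0.0161, and −0.31, adjusted p = 0.0289), named after their values were seen, fell in both genotypes. Of the 9 tested genes for subunits and inhibitors of protein kinase A, *Prkaca* and *Prkar2b* included, 1 was called higher and 1 lower in Atf4WT. In Atf4AKO iWAT 3 were called higher, *Prkar2b* among them, and 1 lower. The regulatory subunit gene *Prkar1a* rose in both (0.21, adjusted p = 0.0248, and 0.31, adjusted p = 0.00519), and the inhibitor gene *Pkia* fell in Atf4WT (−1.43, adjusted p = 0.0420). In Atf4AKO iWAT the regulatory subunit gene *Prkar2a* rose (0.39, adjusted p = 0.0445) and the inhibitor gene *Pkig* fell (−0.38, adjusted p = 0.0459), both named after their values were seen. Of the 13 tested anchors and other cAMP sensors, 4 were called higher and 4 lower in Atf4WT, and 2 higher and 2 lower in Atf4AKO iWAT. *Rapgef4*, for an exchange factor opened by cAMP, rose in Atf4WT (1.22, adjusted p = 0.00455). *Popdc2* fell in both genotypes (−1.08 and −0.82), and so did the anchor gene *Akap12* (−0.85 and −0.52).

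**Figure D4:**
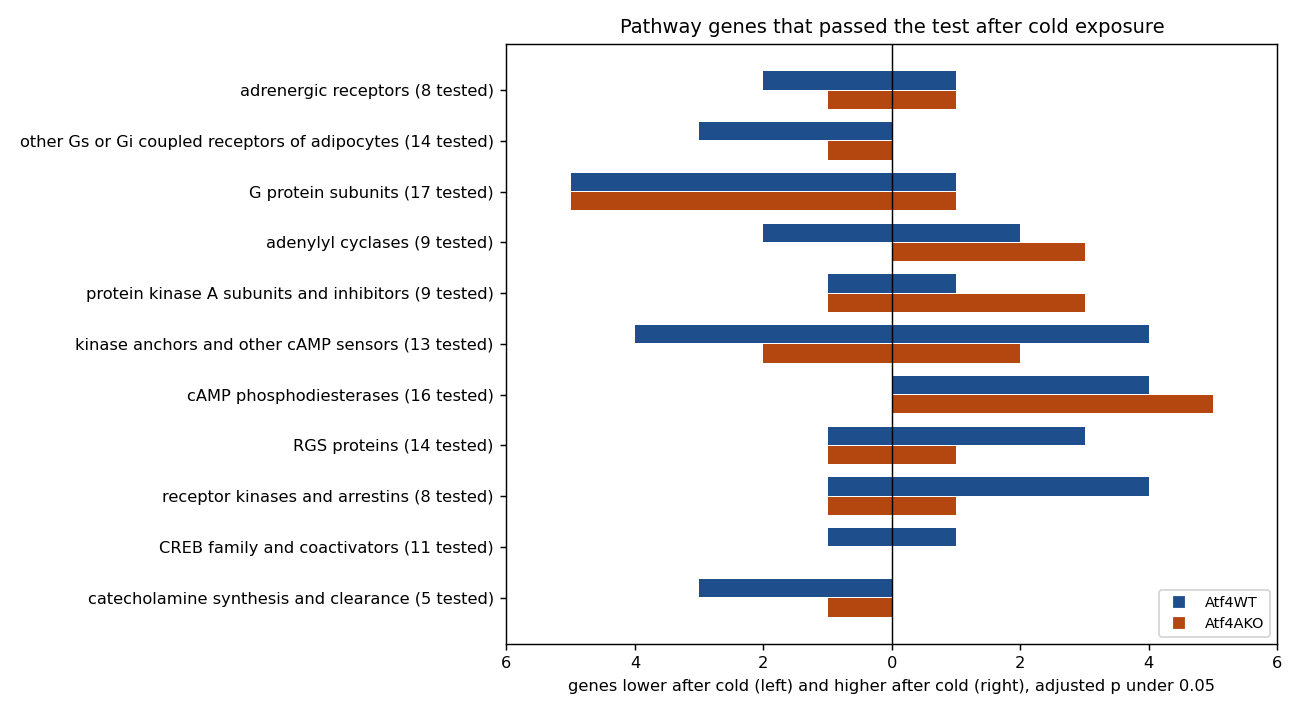
Number of genes of each list by function that were called lower (bars to the left) or higher (bars to the right) after cold in each genotype, with the number tested in brackets. The 16 phosphodiesterase genes have bars only to the right, 4 in Atf4WT and 5 in Atf4AKO, where 17% and 14.8% of all tested genes were called higher.

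Of the 8 tested receptor kinase and arrestin genes, 4 were called higher and 1 lower in Atf4WT, and 1 higher and 1 lower in Atf4AKO iWAT. *Grk3*, for a kinase that marks active receptors for desensitization, rose in both (1.09, adjusted p = 0.00289, and 1.16, adjusted p = 0.00247). *Grk2*, for another such kinase, and the arrestin gene *Arrb2* rose in Atf4WT (0.56, adjusted p = 0.00119, and 0.61, adjusted p = 0.0283) and did not pass in Atf4AKO iWAT (0.08 and −0.10). Their differences between the responses were −0.48 (adjusted p = 0.474) and −0.70 (adjusted p = 0.573). Of the 14 tested RGS genes, 3 were called higher and 1 lower in Atf4WT, and 1 higher and 1 lower in Atf4AKO iWAT. *Rgs5*, which marks pericytes, fell by −1.15 (adjusted p = 0.000430) and −1.09 (adjusted p = 0.000642). *Rgs1* and *Rgs14* rose in Atf4WT (3.10, adjusted p = 0.00889, and 1.37, adjusted p = 0.0204) and did not pass in Atf4AKO iWAT (0.18 and −0.70). Where *Grk2*, *Arrb2*, *Rgs1* and *Rgs14* rose, 10 of 11 B cell and 13 of 13 T cell markers were called higher too. In Atf4AKO iWAT 0 markers of either list were called higher. What these cells contributed to the values was not tested. Of the 11 tested genes of the CREB family and its coactivators and kinases, 1 was called higher (*Crtc2*, 0.34, adjusted p = 0.0456) and 1 lower (*Sik2*, −0.55, adjusted p = 0.00430) in Atf4WT, and 0 in Atf4AKO iWAT. Of 9 genes for making and clearing catecholamines, *Th*, *Ddc*, *Dbh* and *Slc6a2* were not listed, and of the other 5, 3 were called lower in Atf4WT and 1 in Atf4AKO iWAT. These were *Maob* in both (−0.72, adjusted p = 0.000750, and −0.60, adjusted p = 0.00233), and *Slc22a3* (−0.75) and *Maoa* (−0.48) in Atf4WT. None of the genes called in only 1 genotype passed the test of the difference between the responses, where the lowest adjusted p of a named gene was 0.474.

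Atf4AKO was compared with Atf4WT iWAT after cold and at RT to ask whether loss of *Atf4* in adipocytes changes the route. After cold 0 of the 9 genes were called with limma, against 0.0298% of all tested genes, and 0 with edgeR and DESeq2. Over all genes limma called 4, edgeR 3 and DESeq2 600 there. By the rule of a fold change over 1.5 with an unadjusted p under 0.05, 0 of the 9 passed against 6.4% of all. At any fold change 1 of the 9 genes had an unadjusted p under 0.05, against 1571 of all 13404 genes, and it was *Prkar2b* (0.35, unadjusted p = 0.0364, adjusted p = 0.369). All 9 log2 fold changes were positive, where 59.3% of those of all genes were, and their median was 0.29 against 0.05. They ranged from 0.09 for *Adrb1* to 0.43 for *Pde4d* (unadjusted p = 0.0631), and the widest 95% confidence interval ran from −0.84 to 1.57. *Adcy3* (0.29, unadjusted p = 0.0557) and *Gnas* (0.23, unadjusted p = 0.0536) lay between these. Leaving out 1 library gave 0.10 to 0.42 for *Adcy3*, 0.14 to 0.27 for *Gnas* and 0.26 to 0.55 for *Pde4d*, with the lowest *Adcy3* and *Gnas* values without Atf4AKO cold replicate 1. It gave 0.11 to 0.63 for *Adrb3*, 0.11 to 0.85 for *Rgs2*, 0.13 to 0.39 for *Pde3b* and 0.17 to 0.38 for *Prkaca*. *Adrb1* was −0.12 without Atf4AKO cold replicate 1, so not all 9 stayed positive. The adipocyte genes *Adipoq* and *Plin1*, which are not among the 9 genes, had log2 fold changes of 0.26 and 0.23 in the same comparison. All 8 white adipocyte markers, *Adipoq* and *Plin1* included, had positive values there, with a median of 0.21 and 0 called.

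At RT 0 of the 9 genes were called, against 0.00746% of all tested genes, and 0 with edgeR and DESeq2. Over all genes limma called 1, edgeR 1 and DESeq2 4 there. The deleted gene *Atf4* did not pass at RT either, with a log2 fold change of −1.61 (adjusted p = 0.0762). Of the 9 genes 0 had an unadjusted p under 0.05 in limma, against 205 of all tested genes. The log2 fold changes lay between −0.15 for *Pde4d* and 0.20 for *Rgs2*, with a median of 0.12 against 0.01 over all genes. When the cold responses were compared between genotypes, 0 of the 9 genes were called by limma, edgeR or DESeq2, against 0% of all tested genes with limma. Over all genes edgeR called 0 and DESeq2 138. Here 1 of the 9 genes had an unadjusted p under 0.05, against 928 of all, and this was *Adcy3* (0.43, and 0.24 to 0.56 when 1 library was left out). The differences ranged from −0.02 for *Adrb1* to 0.58 for *Pde4d*, and their median was 0.21 against 0.03 over all genes. Those of the 8 white adipocyte markers were all positive, with a median of 0.15 and 0 called. The comparisons share libraries, so their values are not independent of each other.

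Markers of other cell types differed between these groups, and in bulk tissue fewer cells of a type cannot be told apart from less RNA per cell. Of 12 B cell markers 11 were listed (*Fcer2a* was not), and their summed counts were 204, 159.8 and 4297 in Atf4WT at RT and 4235, 8776 and 14688 after cold. In Atf4AKO iWAT the sums were 675, 162 and 303 at RT and 399, 93.0 and 153 after cold. The most abundant marker was *Cd79a*, and 10 of the 11 were called higher after cold in Atf4WT iWAT. Of 14 T cell markers 13 were listed (*Trac* was not), with *Lck* the most abundant, and 13 were called higher after cold in Atf4WT iWAT. Their sums were 369, 269 and 1171 in Atf4WT at RT and 1389, 8262 and 9693 after cold, and 496, 381 and 1038 in Atf4AKO at RT and 549.5, 221 and 295 after cold. So Atf4WT cold replicate 2, which had the lowest *Adrb3* and *Pde3b* of all libraries, had the highest sums of both lists.

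Atf4WT RT replicate 2 stood apart from the other RT libraries of its genotype. It had the highest B cell sum at RT, and its skeletal muscle sum was 112938, against 459 and 848 in the other RT libraries of Atf4WT. The muscle markers, of which 6 of 8 were listed (*Ckm* and *Myh4* were not) with *Acta1* the most abundant, summed to 38299, 157 and 265 in Atf4WT after cold. In Atf4AKO iWAT they summed to 203, 143 and 376 at RT and 103, 4037 and 83.8 after cold. Among the 3 RT libraries of Atf4WT, replicate 2 had the highest *Adrb3* and *Rgs2* and the lowest value of the other 7 genes. Without it the log2 fold change of cold in Atf4WT iWAT was 0.04 for *Rgs2* and 0.19 for *Prkar2b*.

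**Figure D5:**
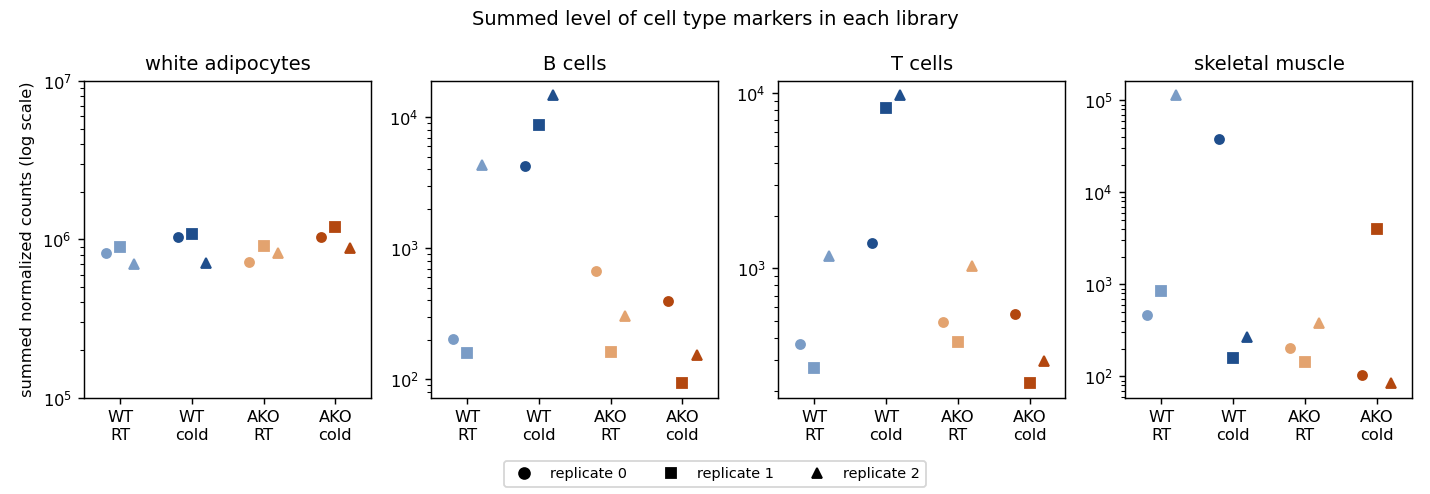
Summed normalized counts (log axes) of markers of white adipocytes, B cells, T cells and skeletal muscle in each library, with the replicate number given by the shape of the point. The B cell and T cell sums are highest in Atf4WT cold replicate 2, and the muscle sum is highest in Atf4WT RT replicate 2.

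Fibroblast and progenitor markers, 7 of 7 listed with *Col1a2* the most abundant, summed to 92075, 78605.5 and 101904 in Atf4WT at RT and 61018.0, 19129.8 and 47179.5 after cold. In Atf4AKO iWAT they summed to 119367, 75757 and 95490.0 at RT and 49356, 15432.5 and 54500.5 after cold. Their log2 fold changes with cold were negative for 7 of 7 in each genotype (medians −1.24 and −1.27), with 1 called lower in Atf4WT and 3 in Atf4AKO iWAT. Cold replicate 1 had the lowest sum in both genotypes, and in Atf4AKO it was also the library with the highest *Adcy3* and *Gnas*.

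Macrophage markers, 7 of 8 listed (*Cd68* was not) with *C1qb* the most abundant, summed to 20330.1, 17791 and 23029 in Atf4WT at RT and 17869.8, 6020.5 and 16875 after cold. The Atf4AKO sums were 31405, 15630.4 and 19559 at RT and 15577, 3335 and 20104.5 after cold, and 0 of the 7 were called in either genotype. Mural cell markers, 7 of 7 listed with *Rgs5* the most abundant, summed to 15595, 16970.3 and 14016 in Atf4WT at RT and 9713, 10541 and 10220.6 after cold. The Atf4AKO sums were 14580.0, 17041 and 14902 at RT and 10923, 10572 and 11672 after cold, and 2 of the 7 were called lower in each genotype. Mural sums after cold lay below those at RT in every library of their genotype.

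White adipocyte markers, 8 of 8 listed with *Fabp4* the most abundant, summed to 824970.0, 889896 and 700024 in Atf4WT at RT and 1036440.0, 1074090.0 and 710937 after cold. The Atf4AKO sums were 723664, 903088 and 816106 at RT and 1030230.0, 1189500.0 and 887081 after cold, so cold and RT libraries overlapped in both genotypes. Of the other lists, 2 of the 3 listed of 6 lymph node stroma markers were called higher in Atf4WT (*Ccl21a*, *Ccl19* and *Glycam1* were not listed). Of 7 endothelial markers 2 were called lower in Atf4WT and 1 higher in Atf4AKO iWAT, and of 7 epithelial markers only 2 were listed and 0 called.

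With a lymphocyte score (the log2 values of the markers of B cells and T cells, averaged in each library) in the model, the log2 fold change of *Adcy3* with cold stayed past the test in both genotypes. In Atf4WT, *Adrb3* did not pass (adjusted p = 0.195), while its log2 fold change differed by only 0.04 from the −1.04 without the score. *Pde4d* did not pass either, at a larger log2 fold change (0.90, adjusted p = 0.119), and *Prkar2b* passed (0.82, adjusted p = 0.00732). In the same fit *Adrb1* had 0.61 (0.10 without the score), *Prkaca* 0.55 (0.18) and *Gnas* 0.24 (0.07). *Rgs2* had −1.04 (−0.37) and *Pde3b* −0.07 (−0.22), and the adjusted p-values of these genes ran from 0.102 to 0.841. Between the genotypes after cold, *Adcy3* then had −0.04, *Prkar2b* −0.25, *Prkaca* −0.20 and *Adrb1* −0.54. In the same comparison *Gnas* had 0.011 (0.23 without the score), *Pde3b* 0.085 (0.27), *Pde4d* 0.20 (0.43), *Adrb3* 0.35 (0.40) and *Rgs2* 1.20 (0.37). The difference between the responses of *Adcy3* was 0.11 with the score, against 0.43 without it. The score did not overlap between the cold groups, with 7.27, 9.24 and 9.71 in Atf4WT and 4.98, 3.32 and 3.94 in Atf4AKO libraries. It did not overlap between Atf4WT cold and Atf4WT RT either, where it was 4.14, 3.79 and 7.10. So the score cannot be told apart from the genotype after cold, nor from cold exposure in Atf4WT. What the other cell types contributed to the values of the 9 genes and of the other genes of the route was not tested.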

How the data were processed

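Polyadenylated RNA of whole iWAT was sequenced in 12 strand-specific libraries. The deposited values are normalized signal from the authors, in which reads per gene were divided by a DESeq2 size factor. The authors used SOAPnuke to filter reads, STAR to map them to mm10, featureCounts (largest overlap, both ends mapped, no chimeric pairs) to count those mapped uniquely and pyDESeq2 for the size factors, and the versions and the strand setting are not given in the sources used here. Division by the smallest value of a library gave whole reads (within 0.001) for 100% of the values. No column was left out.

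The functions lmFit and eBayes (with a trend) of limma 3.58.1, run in R 4.3.3, gave the tests on log2(normalized count + 1), with the 4 group means as the model. Genes under a mean of 10 normalized counts were left out, 13404 were tested, and p-values were adjusted over all of them by Benjamini-Hochberg. In total 24 alternatives were tried, among them other pseudocounts, filters and scalings, array weights, a replicate block and leaving out each library. Others were a lymphocyte score as a covariate, edgeR 4.0.16, DESeq2 1.42.0 and the thresholds of the paper for DEGs. These thresholds were put on the limma results, where the paper names DESeq2. Named beside the 9 genes are, from each list, at most the 3 called genes with the largest change in Atf4WT, and *Ucp1*, *Atf4*, *Adipoq* and *Plin1* as references; list genes named after their values were seen are marked so. The genes and lists were chosen with earlier results of these data known. The tests were also run on simulated data. Exon lengths, joined over all annotated transcripts of a gene, came from GENCODE vM21 (GRCm38) and promoters from RefSeq. Python 3.11.15, numpy 2.4.6, pandas 2.3.3 and matplotlib 3.10.9 were used for the other steps. The spread between replicates differed by gene and group (for *Pde4d* at RT, SD 13.0 in Atf4WT and 210 in Atf4AKO). The 3 libraries of each group limit the precision. Of the 11 marker lists, 1 is not reported here.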

Additional observations from a re-analysis of the deposited data

How the results depend on the processing

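Of 1026 alternative log2 fold changes of the 9 genes, 965 kept their direction and their side of the threshold, 13 lost and 7 gained a call, and 41 changed sign, 0 of them among the 6 called fold changes. Of 138 alternatives of the called fold changes, 125 stayed called. In cold against RT, the number of the 9 genes called was 1 to 3 in Atf4WT and 2 to 4 in Atf4AKO when a library was left out, and 5 in Atf4AKO with DESeq2. With the replicate block it was 3 in Atf4WT and 4 in Atf4AKO, and 0 in the other comparisons. Replicates of the same number had correlations between −0.189 and 0.389 in 18 pairs, 9 of them over 0.1. Every pair of libraries numbered 1 lay over 0.1 (0.179 to 0.389), while pairs numbered 0 and 2 went down to −0.179 and −0.189. Pairs of different numbers reached 0.3125, and the numbers were not taken to pair samples. With array weights, the sign changed for *Adrb1* with cold in Atf4WT (−0.031), *Rgs2* with cold in Atf4AKO (0.16), *Adrb1* between genotypes at RT (−0.016) and the difference between the responses of *Adrb1* (0.063, or 0.018 with edgeR and 0.0045 with DESeq2). With the lymphocyte score it changed for *Adrb1* with cold in Atf4AKO (−0.022), for *Adrb1* (−0.54), *Adcy3* (−0.039), *Prkar2b* (−0.25) and *Prkaca* (−0.20) between genotypes after cold, and for the difference between the responses of *Prkar2b* (−0.37) and *Prkaca* (−0.33). Leaving out a library gave, with cold in Atf4WT, −0.056 to 0.18 for *Adrb1* and −0.64 to 0.036 for *Rgs2*, and in Atf4AKO −0.13 to 0.22 for *Adrb1*, −0.13 to 0.013 for *Pde3b* and −0.69 to 0.34 for *Rgs2*. Between genotypes it gave −0.12 to 0.23 for *Adrb1* after cold, and at RT −0.042 to 0.23 for *Adrb1*, −0.066 to 0.33 for *Adrb3*, −0.0042 to 0.25 for *Prkar2b*, −0.33 to 0.088 for *Pde4d*, −0.047 to 0.079 for *Gnas* and −0.35 to 0.68 for *Rgs2*. For the difference between the responses it gave −0.24 to 0.14 for *Adrb1*, −0.012 to 0.51 for *Adrb3*, −0.016 to 0.24 for *Prkaca* and −0.31 to 0.71 for *Rgs2*. The cause of these changes was not tested. Over all genes, the number called ranged from 1868 to 5306 (main 4273) with cold in Atf4WT, from 2210.0 to 4129 (3467) in Atf4AKO, from 0 to 858 (4) between genotypes after cold, from 1 to 62 (1) at RT and from 0 to 621 (0) for the difference between the responses. The last 3 upper ends come from the rule with unadjusted p; with adjusted p they were 600.0, 4 and 138.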
